A study of Mus musculus with 12 samples.

Results

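The genes described here are 38 transcripts for the kinases, spindle proteins, kinetochore proteins and cytokinesis factors of mitosis, taken by symbol from a table of 55401 genes in mouse heart. All 38 were in the table, and all 38 passed the filter on low counts that left 17699 genes for testing, so no member was lost. They cover mitotic entry (Cdk1, Ccnb1, Ccnb2, Plk1, Aurka, Foxm1), the chromosomal passenger complex (Aurkb, Birc5, Incenp, Cdca8), the spindle checkpoint (Bub1, Bub1b, Ttk, Mad2l1), and the anaphase-promoting complex (Cdc20, Ube2c). The rest serve the spindle (Kif11, Kif15, Kif18b, Kif2c, Kif4, Tpx2, Nusap1), the kinetochore (Cenpa, Cenpe, Cenpf, Ndc80, Nuf2, Spc24, Spc25), the midzone and cytokinesis (Prc1, Kif20a, Kif23, Racgap1, Ect2, Anln) and chromosome structure (Top2a, Mki67).

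The 12 libraries are bulk RNA sequencing of left ventricle from mice, with 3 libraries in each of 4 groups: wild type (WT) or mutant for T497A in Prkca, the gene of protein kinase C alpha, after sham surgery or transverse aortic constriction (TAC). TAC narrows the aortic arch and puts the heart under pressure load, and sham surgery leaves the vessel open. Surgery was done at 10 weeks of age with a 27-gauge needle and tissue was taken 1 week later, at 11 weeks, per the labels. The labels number the libraries 1 to 3 but do not say that they came from separate animals, so the p-values below measure the spread between libraries. No label gives the strain, sex or zygosity of the mice.

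Mitosis is driven by Cdk1 bound to B-type cyclins, which switch the cell into division. Plk1 and the Aurora kinases build the spindle, the checkpoint kinases hold anaphase until every kinetochore is attached, and the anaphase-promoting complex then destroys the cyclins. Most of these genes are transcribed only late in the cell cycle, under the MuvB complex, B-Myb and FoxM1, through promoter elements known as the cell cycle genes homology region and the CCAAT box. Adult heart muscle cells rarely divide, while fibroblasts, endothelial cells and macrophages of the heart can re-enter the cycle under pressure load. In bulk tissue, fewer cells of a type and less RNA per cell cannot be told apart, and these counts do not say which cells carried the mitotic transcripts.

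Total counts ranged from 58932759 to 72594085 per library, and a member had between 4 and 13769 counts in a library. Values are CPM, read counts scaled to the size of the library, with TMM scaling, which sets the bulk of genes level between libraries. The scaling factors were 1.13 to 1.21 in WT TAC and 0.911 to 0.988 in the other 3 groups. Cardiomyocyte markers summed to 45500 to 98000 CPM, and markers of fibroblasts (2730 to 11900 CPM), mural cells (3450 to 5180 CPM) and endothelial cells (1510 to 2030 CPM) were present too, although the label for cell type reads cardiomyocyte. Xist stood at 160 to 215 CPM in the libraries labelled T497A sham and at 0.315 to 0.751 CPM in all others. The Y-linked Ddx3y was at 0.0999 to 0.396 CPM in the libraries labelled T497A sham and at 73.7 to 108 CPM elsewhere. Of 104 autosomal transcripts at least 4-fold apart between the sham groups, 95 had the opposite sign of genotype difference after TAC, 71 of them called, and 0 of the 104 were members. Of the 104, 33 lay on chromosome 11, and 9 kept the same sign after TAC. Why most reversed was not tested, and the reversal concerns the TAC groups as much as the sham groups. Genotype, strain background and labelling therefore cannot be told apart after either surgery. Sex and genotype cannot be told apart in the sham groups, and each TAC group is set below against both sham groups. A point mutation leaves transcript levels free to vary, so Prkca counts do not check the genotype labels, and every direction between genotypes rests on the labels as deposited.

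The promoters of these genes are shown first, for the cell cycle genes homology region and the CCAAT box, which many but not all members hold. RefSeq promoter windows of the GRCm38.p6 build, from 250 bases before to 50 after each start, matched 32 of the 38 members in 34 windows. Motifs were searched on both strands as TTTGAA and TTCGAA, forms of the cell cycle genes homology region, and as CCAAT, the box bound by NF-Y. TTTGAA or TTCGAA was found in 28 of 34 member windows (82.4%), against 19.2% of all 32851 windows. CCAAT was found in 26 (76.5%), against 37.4% of all windows, and 2 or more CCAAT in 18 (52.9%), against 11.7%. Both kinds stood together in 24 windows (70.6%), against 7.52% of all windows, and belonged to 22 genes. The windows of Birc5, Mad2l1, Nuf2 and Nusap1 held neither. In 24 of the 34 windows, bases just after the start were found in an annotated transcript of the gene. The Mad2l1 window ended at chr6:66535270, before the annotated gene start at 66535390, and the Kif2c and Cdca8 windows lay inside their annotated genes. Some windows may therefore not lie at the start in use, and a motif found or missing there is read with that limit. Foxm1, Aurkb, Incenp, Tpx2, Spc24 and Kif20a had no window in the table.

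5 promoters are printed 5′ to 3′ on the strand of the gene, as the 250 bases before the start, with both kinds of element in capitals, where an element on the other strand reads as its reverse complement (ATTGG for CCAAT). Cenpf (chr1:189688087-189688336, strand -), Cenpa (chr5:30666636-30666885, strand +), Mki67 (chr7:135716380-135716629, strand -) and Top2a (chr11:99024190-99024439, strand -) are the 4 members of highest mean CPM, not divided by length, whose window holds both kinds. Cdk1 (chr10:69352913-69353162, strand -) was added after its values were seen, as the kinase at the centre of the group.
Cdk1: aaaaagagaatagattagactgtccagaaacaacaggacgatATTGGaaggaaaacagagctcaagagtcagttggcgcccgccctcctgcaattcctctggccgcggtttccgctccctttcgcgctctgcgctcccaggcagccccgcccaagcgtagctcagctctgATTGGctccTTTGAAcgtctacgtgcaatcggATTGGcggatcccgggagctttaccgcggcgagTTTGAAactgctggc
Mki67: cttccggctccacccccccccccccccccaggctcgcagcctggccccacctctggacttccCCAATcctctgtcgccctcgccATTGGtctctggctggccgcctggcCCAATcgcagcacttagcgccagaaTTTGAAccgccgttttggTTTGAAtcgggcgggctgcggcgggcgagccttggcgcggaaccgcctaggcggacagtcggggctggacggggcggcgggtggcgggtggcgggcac
Top2a: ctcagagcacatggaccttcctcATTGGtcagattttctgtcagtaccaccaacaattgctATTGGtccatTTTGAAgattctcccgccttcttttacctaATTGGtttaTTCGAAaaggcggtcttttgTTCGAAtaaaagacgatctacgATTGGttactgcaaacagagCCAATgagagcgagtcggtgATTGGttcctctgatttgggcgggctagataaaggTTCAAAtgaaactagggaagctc
Cenpf: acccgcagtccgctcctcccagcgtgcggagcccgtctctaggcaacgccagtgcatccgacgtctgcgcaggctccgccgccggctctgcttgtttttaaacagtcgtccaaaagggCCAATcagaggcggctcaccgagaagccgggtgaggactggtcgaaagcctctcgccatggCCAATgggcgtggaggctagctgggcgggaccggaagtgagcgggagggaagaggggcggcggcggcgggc
Cenpa: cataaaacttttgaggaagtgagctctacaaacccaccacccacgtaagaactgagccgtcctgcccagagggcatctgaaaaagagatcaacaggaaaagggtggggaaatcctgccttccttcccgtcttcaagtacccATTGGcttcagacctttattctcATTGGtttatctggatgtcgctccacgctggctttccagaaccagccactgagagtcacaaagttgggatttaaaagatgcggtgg
The Cdk1, Mki67 and Top2a stretches carry both kinds of element upstream of the start. The Cenpf and Cenpa stretches carry only CCAAT, since their TTTGAA starts 3 and 17 bases into the transcribed part of the window. A match of letters is a description and not a bound site. Cenpf and Cenpa, for which no rise with TAC was called, hold both kinds only when the transcribed part of the window is included. Nuf2, among those with the highest rise, holds neither. Spc24, the other member with no called rise, had no window. Whether motif content goes with the change with TAC was not tested.

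TAC raised nearly all of the group in WT hearts. Tested with edgeR's quasi-likelihood test and Benjamini-Hochberg adjustment over all 17699 genes, with an adjusted p under 0.05 as a call, 35 of 38 members were higher in WT TAC than in WT sham, where 25.9% of all tested genes were. Cenpf was the 1 member that was lower, where 24% of all tested genes were. The median log2 fold change of the members was 2.42, and that of all tested genes was 0.03. In T497A hearts, 35 of 38 members were higher with TAC (12.9% of all tested genes) and 1 was lower (11.4%), with a median log2 fold change of 2.34 against 0.00 over all tested genes. T497A sham had high Xist and almost no Ddx3y, and T497A TAC the reverse. Surgery and sex therefore cannot be told apart in any change with TAC given here for T497A. The 35 that rose were the same in both genotypes, and Cenpf was the 1 that fell in both. The share of all tested genes called the same way in both genotypes was not counted.

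**Figure D1:**
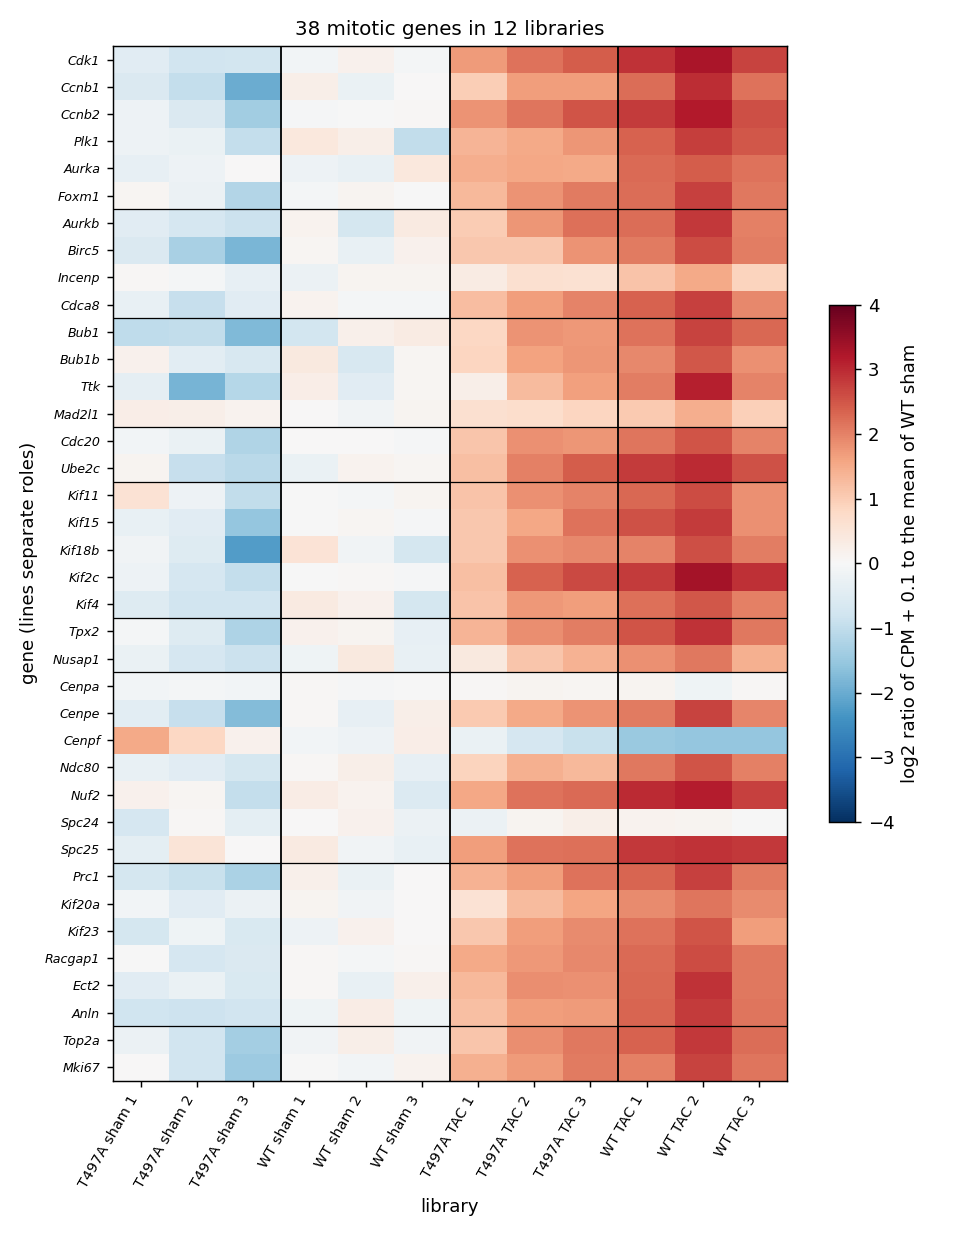
Heat map of the 38 genes (rows, with lines between roles) in the 12 libraries (columns), coloured by the log2 ratio of CPM plus 0.1 to the mean of WT sham. The 6 TAC libraries are red for most rows, Cenpf turns blue with TAC, and Cenpa and Spc24 stay pale throughout.

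In WT the libraries did not overlap between sham and TAC for 35 members that were higher with TAC (31.2% of all tested genes) and 1 that was lower (29%). In T497A they did not overlap for 36 that were higher (20.9%), Cenpa included, and 1 that was lower (19.8%). Because the sham groups differ in sex-linked transcripts, each TAC group was also compared with the sham group of the other genotype. T497A TAC stood above WT sham for 33 members (6.12% of all tested genes) and below it for 0 (3.90%), with a median log2 fold change of 1.65. Both of these groups were low in Xist and high in Ddx3y, but they differ in genotype label. WT TAC stood above T497A sham for 35 members (25.6%) and below it for 1 (24.6%), with a median of 3.09. Libraries did not overlap for 35 members higher and 1 lower in each of these 2 comparisons (17% and 16.6% of all tested genes in the first, 30% and 28.4% in the second). In all, 33 members were called higher in all 4 of these comparisons, which share control and TAC libraries with each other. How many of all tested genes were called higher in all 4 was not counted.

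The mitotic entry genes all rose in both genotypes. Cdk1 (gene ENSMUSG00000019942.13, chr10:69335146-69352938, strand - on GRCm38), the kinase that drives entry into mitosis, was at 1.18, 1.45 and 1.22 CPM in WT sham, 10.2, 13.3 and 8.95 in WT TAC, 0.914, 0.716 and 0.732 in T497A sham and 4.402, 6.09 and 7.24 in T497A TAC. Every TAC library stood above every sham library, and in each surgery arm every T497A library stood below every WT library. The rise with TAC was 8.43-fold in WT (log2 3.08 ± 0.21, adjusted p = 7.4e-08) and 7.5-fold in T497A (log2 2.91 ± 0.22, adjusted p = 9.3e-07).

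Ccnb1, the cyclin B1 partner of Cdk1, was at 0.819, 0.5503 and 0.693 CPM in WT sham, 3.595, 5.97 and 3.44 in WT TAC, 0.425, 0.305 and 0.0999 in T497A sham and 1.46, 2.43 and 2.43 in T497A TAC. Ccnb2, the second B-type cyclin of dividing cells, was at 0.836, 0.862 and 0.913 CPM in WT sham, 6.64, 8.69 and 5.75 in WT TAC, 0.735, 0.548 and 0.266 in T497A sham and 3.29, 4.15 and 5.48 in T497A TAC. For both cyclins WT TAC 2 was the highest library and T497A sham 3 the lowest, and no T497A TAC library reached a WT TAC library. Ccnb1 rose by a log2 fold change of 2.65 ± 0.36 in WT and 2.92 ± 0.40 in T497A, and Ccnb2 by 3.01 ± 0.29 and 3.05 ± 0.30. Ccnb1 shares 23.4% of its 50-base windows with other genes, mainly the processed pseudogene Ccnb1-ps, so its reads may be split or lost.

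Plk1, the polo-like kinase that matures centrosomes, was at 1.14, 0.991 and 0.372 CPM in WT sham, 4.74, 6.21 and 5.17 in WT TAC, 0.719, 0.6702 and 0.383 in T497A sham and 2.28, 2.60 and 3.05 in T497A TAC. Aurka, the Aurora kinase of the spindle poles, was at 0.819, 0.752 and 1.302 CPM in WT sham, 4.93, 5.55 and 4.63 in WT TAC, 0.751, 0.823 and 0.965 in T497A sham and 2.78, 3.02 and 2.95 in T497A TAC. In both genes the TAC groups were clear of the sham groups and of each other, while the sham groups overlapped. Foxm1, a transcription factor that drives late cell cycle genes, was at 1.81, 2.06 and 1.88 CPM in WT sham, 9.38, 13.3 and 8.58 in WT TAC, 2.02, 1.63 and 0.799 in T497A sham and 4.87, 6.91 and 8.43 in T497A TAC. The Foxm1 rise was 2.44 ± 0.29 in WT and 2.18 ± 0.30 in T497A on the log2 scale.

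The chromosomal passenger complex corrects wrong attachments at the centromere and then moves to the midzone. Its kinase Aurkb was at 1.02, 0.532 and 1.23 CPM in WT sham, 4.76, 7.19 and 4.06 in WT TAC, 0.653, 0.548 and 0.466 in T497A sham and 2.004, 3.40 and 4.63 in T497A TAC. Its survivin subunit Birc5 was at 1.02, 0.7705 and 1.08 CPM in WT sham, 4.37, 6.37 and 4.31 in WT TAC, 0.604, 0.335 and 0.1997 in T497A sham and 2.15, 2.12 and 3.605 in T497A TAC. Aurkb overlapped between the TAC groups, because T497A TAC 3 lay above WT TAC 3, while the Birc5 libraries of the mutant lay below those of WT after either surgery.

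The borealin subunit Cdca8 was at 1.07, 0.899 and 0.896 CPM in WT sham, 5.305, 6.93 and 3.93 in WT TAC, 0.767, 0.457 and 0.666 in T497A sham and 2.41, 3.23 and 4.12 in T497A TAC. The scaffold Incenp was at 5.48, 6.95 and 6.96 CPM in WT sham, 14.4, 18.7 and 12.2 in WT TAC, 6.66, 6.14 and 5.09 in T497A sham and 8.11, 10.1 and 9.96 in T497A TAC. The 3 partners rose by log2 2.51 (Aurkb), 2.38 (Birc5) and 2.49 (Cdca8) in WT, and Incenp by 1.22 ± 0.16. In T497A, Incenp rose by 0.65 ± 0.16 (adjusted p = 0.0094), the second smallest rise of the 35.

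The spindle checkpoint genes split by size of change. Bub1, a kinase that recruits checkpoint proteins to kinetochores, was at 0.375, 0.807 and 0.896 CPM in WT sham, 3.49, 5.12 and 3.81 in WT TAC, 0.294, 0.305 and 0.133 in T497A sham and 1.305, 2.63 and 2.55 in T497A TAC. Ttk, the Mps1 kinase that starts the checkpoint signal, was at 0.614, 0.3302 and 0.524 CPM in WT sham, 2.33, 5.03 and 2.26 in WT TAC, 0.359, 0.0609 and 0.166 in T497A sham and 0.592, 1.32 and 1.75 in T497A TAC. Their levels after TAC were clear of sham within each genotype. T497A TAC 1 had the lowest Ttk level of the TAC libraries, inside the range of WT sham.

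Mad2l1, the protein that holds Cdc20 inactive, was at 4.18, 3.69 and 4.396 CPM in WT sham, 8.59, 11.4 and 7.93 in WT TAC, 4.899, 4.86 and 4.51 in T497A sham and 6.38, 6.71 and 7.48 in T497A TAC. Its sham libraries lay higher in T497A than in WT, and its TAC libraries lay lower, with no overlap in either arm. Mad2l1 rose by 1.19 ± 0.14 in WT (adjusted p = 9.3e-06) and by 0.53 ± 0.14 in T497A (adjusted p = 0.015) on the log2 scale. The T497A call was lost without T497A sham 3 (adjusted p = 0.055) or T497A TAC 3 (adjusted p = 0.058). Bub1b, the BubR1 subunit of the checkpoint complex, rose by 2.15 ± 0.33 in WT and 1.77 ± 0.33 in T497A.

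Cdc20, which activates the anaphase-promoting complex, was at 2.01, 2.02 and 1.89 CPM in WT sham, 9.06, 11.7 and 8.05 in WT TAC, 1.83, 1.63 and 0.799 in T497A sham and 4.402, 7.201 and 6.88 in T497A TAC. Ube2c, the ubiquitin-conjugating enzyme of that complex, was at 0.904, 1.23 and 1.15 CPM in WT sham, 8.21, 9.36 and 6.84 in WT TAC, 1.18, 0.533 and 0.466 in T497A sham and 2.67, 4.71 and 6.27 in T497A TAC. The TAC libraries of WT lay above those of T497A in both genes, but the test did not call the difference. Ube2c rose by 2.89 ± 0.35 in WT and 2.65 ± 0.36 in T497A, and Cdc20 by 2.28 ± 0.26 and 2.11 ± 0.27. Ube2c overlaps Tnnc2, which encodes a troponin C of skeletal muscle, on the opposite strand over 22.8% of its exon bases, and Cdc20 shares 10.6% of its windows with other genes, mainly the pseudogene Gm7856.

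**Figure D2:**
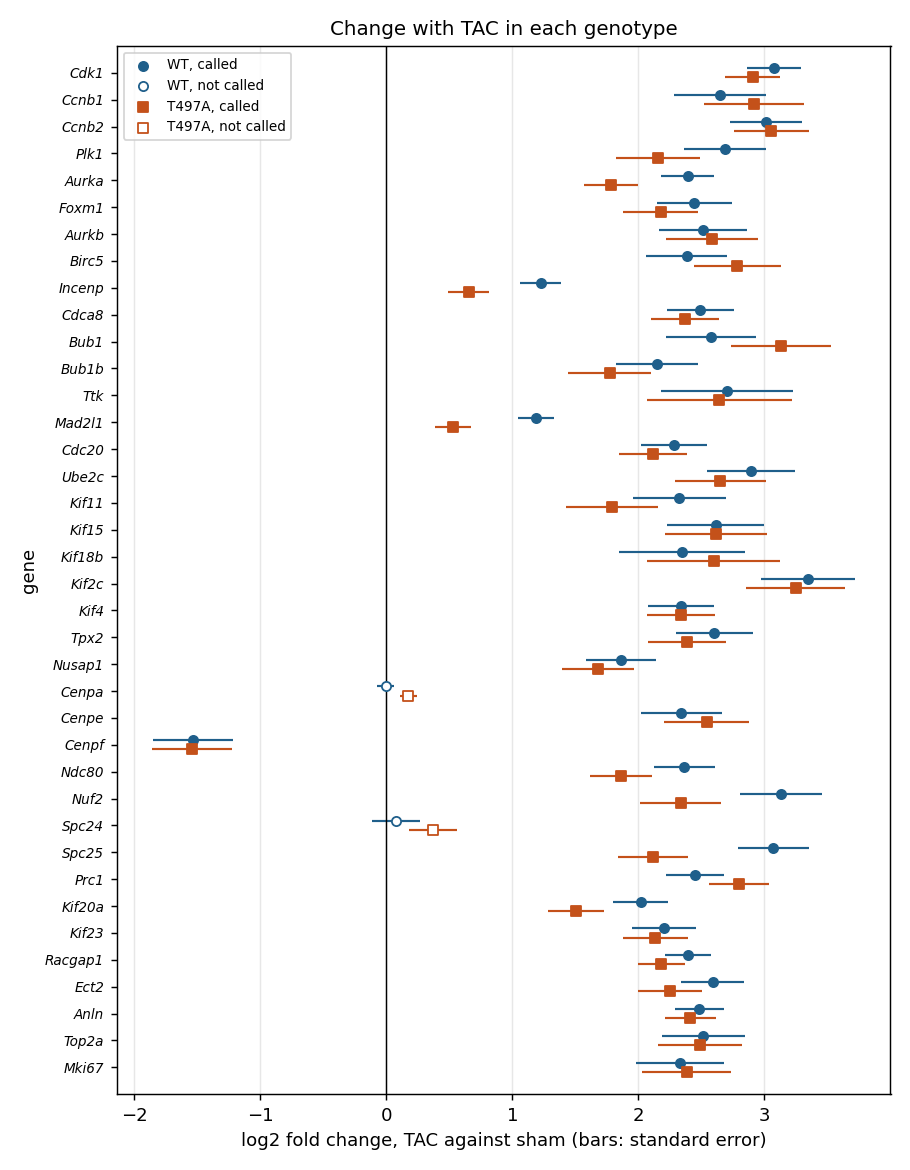
Log2 fold changes, TAC against sham, for each of the 38 genes, with circles for WT, squares for T497A, filled symbols for calls and bars for the standard error. The medians of the 38 genes are 2.42 in WT and 2.34 in T497A, Incenp and Mad2l1 lie closer to 0 than the other called rises, Cenpa and Spc24 are not called and Cenpf lies below 0.

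Spindle kinesins are motors that slide or shorten microtubules. Kif2c, which depolymerises microtubules at centromeres, was at 0.341, 0.367 and 0.338 CPM in WT sham, 3.05, 4.38 and 3.27 in WT TAC, 0.294, 0.183 and 0.133 in T497A sham and 0.941, 2.22 and 2.67 in T497A TAC. Kif2c had the largest rise in the group, 10.2-fold in WT (log2 3.35 ± 0.37) and 9.49-fold in T497A (log2 3.25 ± 0.39). Kif11, the Eg5 motor that pushes spindle poles apart, was at 2.098, 2.00 and 2.299 CPM in WT sham, 10.9, 13.4 and 7.75 in WT TAC, 3.27, 1.86 and 1.03 in T497A sham and 4.83, 7.83 and 8.66 in T497A TAC. Kif11 overlapped between genotypes after both surgeries, because T497A sham 1 was the highest sham library and WT TAC 3 the lowest of its group.

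Kif4, a chromosome-bound motor encoded on chromosome X, was at 1.69, 1.47 and 0.761 CPM in WT sham, 6.43, 7.77 and 5.597 in WT TAC, 0.882, 0.731 and 0.732 in T497A sham and 2.98, 4.57 and 4.35 in T497A TAC. Its TAC libraries did not overlap between genotypes and its sham libraries did. Kif15, which backs up Kif11, rose by 2.61 ± 0.38 in WT and 2.62 ± 0.40 in T497A, and Kif18b, a motor of astral microtubules, by 2.35 ± 0.50 and 2.60 ± 0.53. Kif4 overlaps Pdzd11 on the opposite strand over 15.1% of its exon bases.

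The spindle assembly factor Tpx2, which activates Aurora A, was at 2.76, 2.605 and 1.89 CPM in WT sham, 14.4, 18.8 and 10.9 in WT TAC, 2.29, 1.68 and 0.965 in T497A sham and 6.34, 9.001 and 10.4 in T497A TAC. Nusap1, which bundles microtubules near chromosomes, was at 1.89, 2.81 and 1.72 CPM in WT sham, 7.78, 9.63 and 5.89 in WT TAC, 1.75, 1.31 and 1.13 in T497A sham and 2.87, 4.79 and 5.77 in T497A TAC. The TAC libraries of T497A lay below those of WT for both. On the log2 scale Nusap1 rose less, by 1.86 ± 0.28 in WT and 1.68 ± 0.29 in T497A, than Tpx2, by 2.60 ± 0.31 and 2.38 ± 0.31, a difference between genes that was not tested.

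The kinetochore genes behaved in 3 ways. The outer kinetochore genes that grip microtubules rose. Ndc80 was at 0.853, 0.991 and 0.642 CPM in WT sham, 3.88, 5.26 and 3.65 in WT TAC, 0.653, 0.579 and 0.466 in T497A sham and 1.64, 2.38 and 2.17 in T497A TAC. Nuf2, its partner in the Ndc80 complex, was at 0.921, 0.826 and 0.473 CPM in WT sham, 6.56, 7.36 and 5.53 in WT TAC, 0.849, 0.792 and 0.333 in T497A sham and 2.34, 3.69 and 3.98 in T497A TAC. Spc25, which joins that complex to the inner kinetochore, was at 0.665, 0.4403 and 0.389 CPM in WT sham, 4.103, 4.38 and 4.11 in WT TAC, 0.359, 0.746 and 0.499 in T497A sham and 1.81, 2.57 and 2.63 in T497A TAC. For all 3 the TAC libraries of T497A lay below those of WT while the sham libraries overlapped. The rises in WT were 2.36 ± 0.24, 3.13 ± 0.33 and 3.07 ± 0.28 on the log2 scale, and in T497A 1.86 ± 0.25, 2.33 ± 0.32 and 2.12 ± 0.28. Cenpe, a kinesin that captures microtubules at kinetochores, rose by 2.34 ± 0.32 and 2.54 ± 0.34.

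Cenpa and Spc24 did not pass the test with TAC in either genotype. Cenpa, the histone H3 variant that marks centromeres, was at 35.3, 33.7 and 34.4 CPM in WT sham, 37.1, 30.6 and 35.4 in WT TAC, 32.3, 32.99 and 31.8 in T497A sham and 35.4, 37.5 and 36.8 in T497A TAC. Its log2 change with TAC was -0.00 ± 0.07 in WT (adjusted p = 0.96) and 0.18 ± 0.07 in T497A (adjusted p = 0.078). The T497A sham libraries of Cenpa lay just below the WT sham libraries, and the T497A TAC libraries just above them. With scaling by library totals alone, which shifts the median of all tested genes in WT by 0.36, the Cenpa change in WT was 0.33 (adjusted p = 0.00046), so its flat level in WT depends on the scaling. Spc24, which binds Spc25 in the same complex, was at 4.52, 5.06 and 3.74 CPM in WT sham, 4.88, 4.79 and 4.399 in WT TAC, 2.73, 4.57 and 3.38 in T497A sham and 3.76, 4.77 and 5.26 in T497A TAC, and its groups overlapped in every comparison. Its log2 change was 0.08 ± 0.19 in WT (adjusted p = 0.76) and 0.37 ± 0.19 in T497A (adjusted p = 0.18).

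Cenpf was the 1 member that fell. Cenpf encodes a large protein of the kinetochore and nuclear envelope that is also known in heart muscle cells, where its loss in mice causes cardiomyopathy. Cenpf was at 72.8, 67.7 and 95.01 CPM in WT sham, 28.01, 26.5 and 26.9 in WT TAC, 225, 139.5 and 88.6 in T497A sham and 64.7, 48.8 and 42.1 in T497A TAC. All TAC libraries lay below the sham libraries of their genotype, and the T497A sham libraries ranged widely, with library 1 the highest. Cenpf was 2.89-fold lower with TAC in WT (log2 -1.53 ± 0.32, adjusted p = 0.0033) and 2.91-fold lower in T497A (log2 -1.54 ± 0.32, adjusted p = 0.008). Fitted on the sham and TAC libraries of T497A alone, the T497A fall was not called (adjusted p = 0.067). Against WT sham, the T497A TAC libraries also lay lower without overlap, with a log2 difference of -0.60 ± 0.31 that was not called (adjusted p = 0.28). The summed cardiomyocyte markers also fell with TAC, from 88000 to 96800 CPM in WT sham to 45500 to 53800 CPM in WT TAC, and from 94600 to 98000 CPM to 75800 to 81000 CPM in T497A, and their part in the Cenpf result was not tested.

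**Figure D3:**
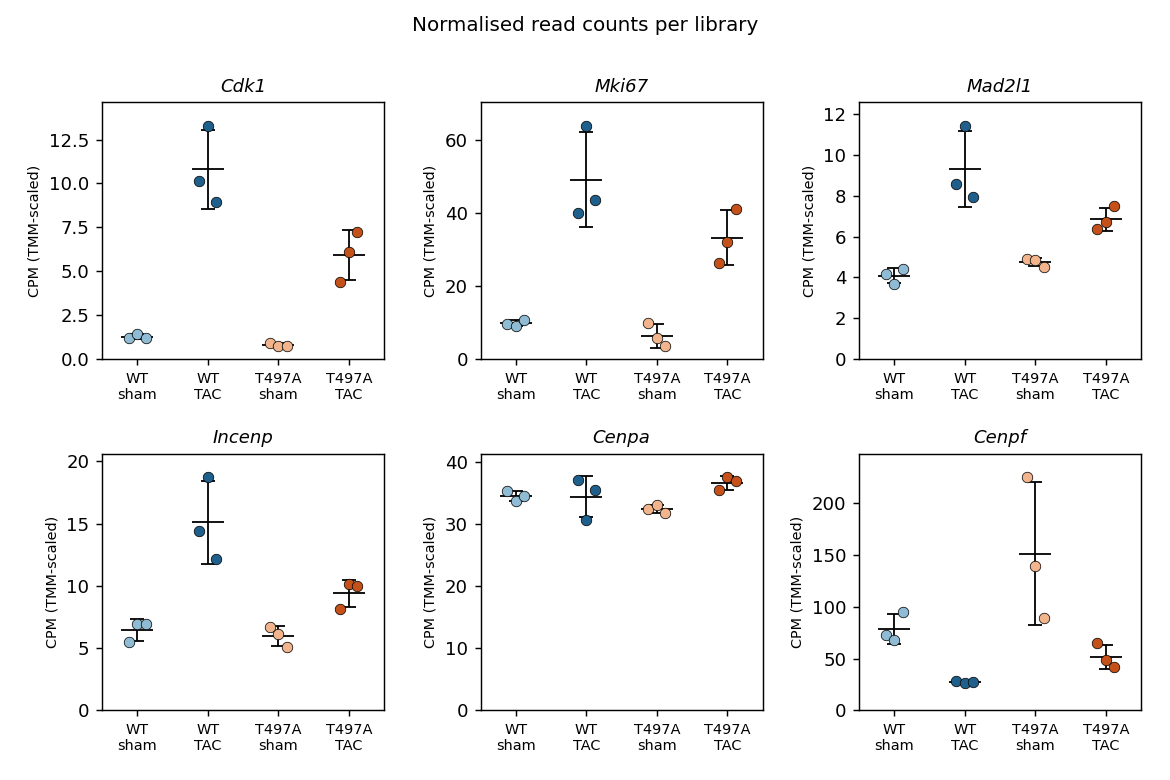
CPM with TMM scaling in each library for Cdk1, Mki67, Mad2l1, Incenp, Cenpa and Cenpf, with points for libraries 1 to 3 from left to right, a horizontal mark for the mean and bars for the SD (n = 3). Cdk1 and Mki67 rise with TAC in both genotypes, Mad2l1 and Incenp rise less, Cenpa shows no called change and Cenpf falls.

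Midzone and cytokinesis genes build the bridge where the dividing cell is pinched off. Prc1, which bundles midzone microtubules, was at 3.22, 2.31 and 2.84 CPM in WT sham, 14.5, 19.2 and 12.1 in WT TAC, 1.67, 1.45 and 1.11 in T497A sham and 7.56, 9.08 and 12.8 in T497A TAC. Anln, the anillin scaffold of the contractile ring, was at 2.76, 3.87 and 2.79 CPM in WT sham, 16.3, 22.3 and 14.1 in WT TAC, 1.76, 1.71 and 1.81 in T497A sham and 7.29, 10.3 and 10.5 in T497A TAC. Anln separated all 4 groups, in the order T497A sham, WT sham, T497A TAC, WT TAC, while T497A TAC 3 brought Prc1 into the range of WT TAC. Prc1 overlaps Rccd1 on the opposite strand over 11.1% of its exon bases.

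Ect2, the exchange factor that activates RhoA at the cleavage site, was at 1.06, 0.807 and 1.18 CPM in WT sham, 5.399, 8.24 and 4.75 in WT TAC, 0.719, 0.838 and 0.632 in T497A sham and 2.67, 3.91 and 3.88 in T497A TAC. Racgap1, the centralspindlin subunit that binds Ect2, was at 2.58, 2.33 and 2.57 CPM in WT sham, 12.5, 15.7 and 11.1 in WT TAC, 2.45, 1.54 and 1.65 in T497A sham and 7.35, 8.49 and 9.74 in T497A TAC. Kif20a, the midzone motor that brings the passenger complex there, was at 2.303, 1.91 and 2.16 CPM in WT sham, 8.15, 9.61 and 8.11 in WT TAC, 1.98, 1.52 and 1.797 in T497A sham and 3.203, 5.25 and 6.59 in T497A TAC. In these 3 genes the TAC libraries of T497A lay below those of WT and the sham libraries overlapped. The rises in WT were 2.59 ± 0.25, 2.39 ± 0.18 and 2.02 ± 0.22 on the log2 scale, and in T497A 2.25 ± 0.25, 2.18 ± 0.19 and 1.51 ± 0.22. Kif23, the motor of centralspindlin, rose by 2.21 ± 0.25 and 2.13 ± 0.26. Kif20a overlaps its opposite-strand neighbour Cdc23 over 29.3% of its exon bases, and Cdc23 was itself called higher with TAC in T497A by 0.19 ± 0.06.

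Top2a, the topoisomerase that untangles chromosomes, was at 5.83, 7.56 and 5.85 CPM in WT sham, 33.5, 46.3 and 30.3 in WT TAC, 5.42, 3.76 and 2.45 in T497A sham and 14.1, 23.5 and 27.8 in T497A TAC. Mki67, the coat protein of mitotic chromosomes used as a proliferation marker, was at 9.59, 9.03 and 10.7 CPM in WT sham, 39.9, 63.8 and 43.6 in WT TAC, 9.86, 5.73 and 3.495 in T497A sham and 26.4, 32.02 and 41.2 in T497A TAC. The TAC libraries were clear of sham for both, and the Mki67 libraries overlapped between genotypes after both surgeries. Top2a rose by 2.52 ± 0.33 in WT and 2.49 ± 0.34 in T497A, and Mki67 by 2.33 ± 0.35 and 2.38 ± 0.35.

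Levels can be compared between genes only per length of exon. In CPM per kilobase, the median member was at 0.336 in WT sham, 1.81 in WT TAC, 0.227 in T497A sham and 1.12 in T497A TAC. The highest in WT sham were Cenpa (5.89), Cenpf (5.09), Spc24 (1.73), Incenp (1.49) and Cdc20 (1.06). The first 3 of these are the 3 members for which no rise with TAC was called. In WT TAC the order was Cenpa (5.87), Cdc20 (5.15), Mki67 (4.88), Ccnb2 (4.59) and Top2a (4.07). These lengths are unions of all annotated exons, so a gene with long, little-used exons reads low.

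Between genotypes as labelled, T497A hearts carried less of most of these transcripts after TAC. After TAC, 22 of 38 members were lower in T497A than in WT, where 17.9% of all tested genes were, and 1, Cenpf, was higher, where 17.8% were. The median log2 difference was -0.76, and -0.02 over all tested genes. The libraries did not overlap for 28 members that were lower in T497A (25.3% of all tested genes) and 1 that was higher (24.2%). The largest called differences were in Ttk (-1.39 ± 0.48, adjusted p = 0.039), Ndc80 (-1.04 ± 0.22, adjusted p = 0.0022), Ccnb1 (-1.04 ± 0.33, adjusted p = 0.025) and Plk1 (-1.02 ± 0.30, adjusted p = 0.015). The smallest p-values were for Anln (-0.91 ± 0.18, adjusted p = 0.0015), Ndc80 and Cdk1 (-0.87 ± 0.19, adjusted p = 0.0024). Cenpf was higher in T497A TAC than in WT TAC by 0.93 ± 0.31 (adjusted p = 0.047), a call lost under 13 of 21 alternatives. Those not called were Foxm1, Aurkb, Bub1b, Cdc20, Ube2c, Kif11, Kif15, Kif18b, Tpx2, Cenpa, Cenpe, Spc24, Kif23, Top2a and Mki67.

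The number of members called lower in T497A after TAC hung on single libraries. It was 6 without T497A TAC 1, 8 without WT TAC 2, 12 without T497A TAC 2 and 14 without WT TAC 1, and up to 26 without others. Anln, Aurka, Cdk1, Incenp, Kif20a and Ndc80 were called lower in every one of the 12 fits that left out 1 library. Within the TAC groups most members followed the same library: WT TAC 2 was the highest WT TAC library for 35 of 38 members, and T497A TAC 1 the lowest T497A TAC library for 36. In WT sham they did not, with 14, 12 and 12 members highest in libraries 1, 2 and 3. For such counts of highest and lowest libraries, here and below, the share of all tested genes was not counted. The sum of the members without Cenpf was 330 to 476 CPM in WT TAC and 197 to 302 CPM in T497A TAC. With 3 libraries against 3, members that share a library's level are not independent of each other.

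**Figure D4:**
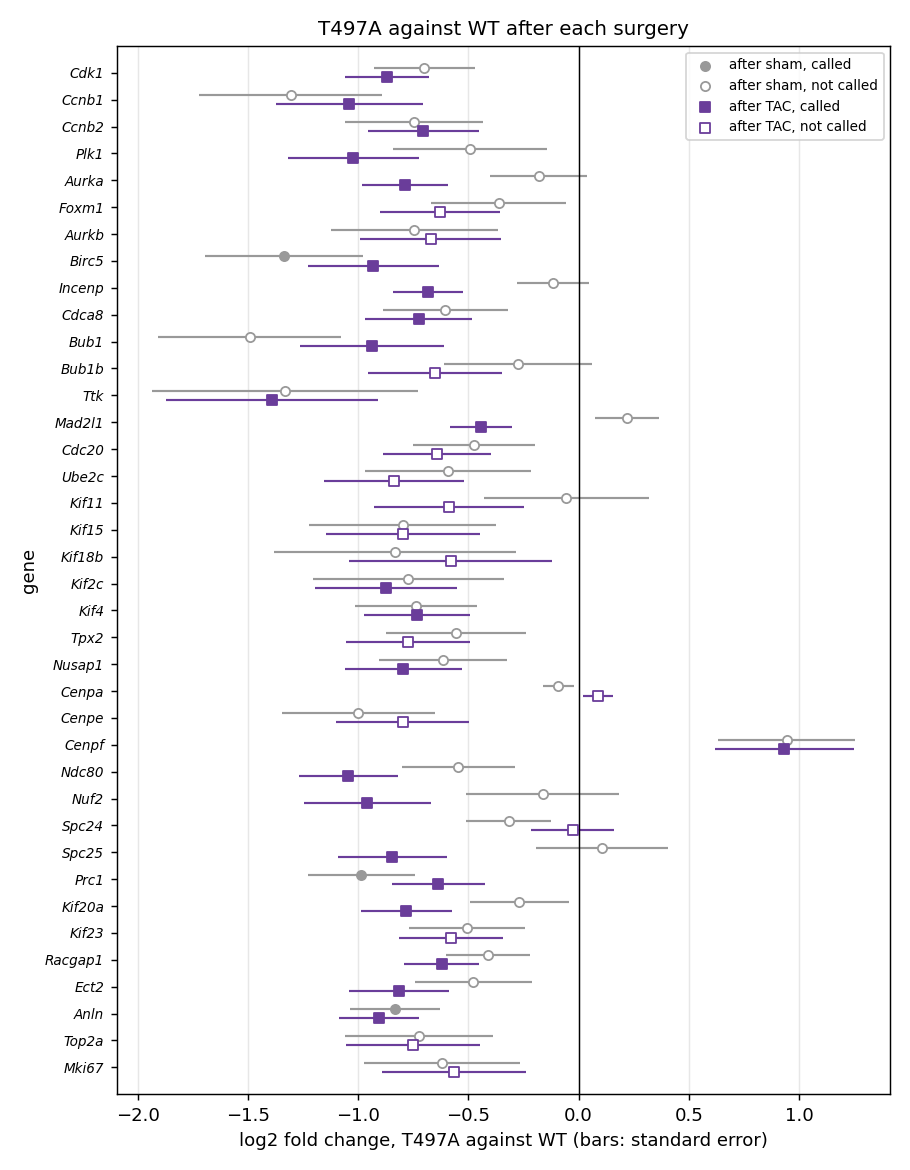
Log2 fold changes, T497A against WT, for each of the 38 genes, with grey circles after sham, purple squares after TAC, filled symbols for calls and bars for the standard error. Estimates lie below 0 after both surgeries for 34 genes, 22 are called lower after TAC and 3 after sham, and Cenpf lies above 0 in both. The share of all tested genes below 0 after both surgeries was not counted.

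After sham surgery, 3 members were called lower in T497A than in WT (2.80% of all tested genes) and 0 higher (2.99%), with 12 members at an unadjusted p under 0.05. The 3 were Birc5 (-1.33 ± 0.36, adjusted p = 0.042), Prc1 (-0.99 ± 0.24, adjusted p = 0.031) and Anln (-0.83 ± 0.21, adjusted p = 0.029), the same 3 being called lower after TAC too. DESeq2 called 6 lower and limma-voom called 0, and the count ranged from 0 to 5 when 1 library was left out, with 0 without T497A sham 2 or T497A sham 3 and 5 without WT TAC 2. The median log2 difference was -0.58, against 0.00 over all tested genes, and 14 members lay lower in T497A without overlap (13.5% of all tested genes) and 1, Mad2l1, higher (12.9%). The sum without Cenpf was 108 to 110 CPM in WT sham and 72.7 to 98.5 CPM in T497A sham. The T497A sham libraries differ from the WT sham libraries in Xist and Ddx3y as given above, so genotype, sex and strain background cannot be told apart here. T497A sham 3, the lowest library for 27 of 38 members, also held the highest summed atrial markers of the sham libraries (1110 CPM, against 152 to 357 CPM), and their part in the result was not tested.

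With the labels as deposited, the response to TAC was called different between genotypes for 1 member. The interaction, which asks whether TAC changed a gene by a different factor in T497A than in WT, was called lower for that member (14.2% of all tested genes) and higher for 0 (15.3%). The called member was Mad2l1 (-0.66 ± 0.20, adjusted p = 0.023). The median interaction over the members was -0.11 on the log2 scale, 3 members had an unadjusted p under 0.05, and the standard errors ran from 0.0972 to 0.885 with a median of 0.391. The lowest estimates were for Spc25 (-0.95 ± 0.39, adjusted p = 0.08) and Nuf2 (-0.80 ± 0.45, adjusted p = 0.21). A miss does not show equal responses, since at the median standard error a difference of the size seen in Mad2l1 would not stand out. This count rests on which sham group is the reference: the median TAC change of the members was 2.42 in WT and 2.34 in T497A against the sham group of the same label, and 3.09 and 1.65 against the other sham group. The interaction also carries the difference in Xist and Ddx3y between T497A sham and the other groups, so genotype and sex cannot be told apart in it. In 34 members the group means followed the order T497A sham, WT sham, T497A TAC, WT TAC. The share of all tested genes in that order was not counted.

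The gap between the TAC groups ran beside differences in cell type markers. Of 8 markers of activated fibroblasts, 8 rose with TAC in WT and 3 in T497A, and their sum was 1980 to 4140 CPM in WT TAC and 275 to 619 CPM in T497A TAC, from 183 to 261 CPM and 225 to 321 CPM in the sham groups. Of 10 macrophage markers, 9 rose in WT, and 5 rose and 1 fell in T497A, with sums of 390 to 593 CPM in WT TAC and 273 to 294 CPM in T497A TAC, against 203 to 234 CPM and 231 to 271 CPM after sham. Of 10 fibroblast markers, 7 rose and 2 fell in WT and 2 rose and 2 fell in T497A. Of 10 cardiomyocyte markers, 9 fell in WT and 5 in T497A, with the sums given above. Of 10 endothelial markers, 5 rose and 1 fell in WT, and 4 rose and 1 fell in T497A. Of 8 mural markers, 4 rose and 2 fell in WT, and 3 rose and 0 fell in T497A. Of all tested genes, 25.9% rose and 24% fell with TAC in WT, and 12.9% rose and 11.4% fell in T497A. The part of these markers in the mitotic results was not tested.

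Library by library, the mitotic genes and Postn, a gene of activated fibroblasts, were highest in the same library in WT TAC and not in T497A TAC. WT TAC 2 had the highest mitotic sum and the highest level of Postn, at 2676 CPM against 1637 and 1283 CPM in WT TAC 1 and 3. T497A TAC 3 was the highest library of its group for 29 members and had the lowest Postn, at 117 CPM against 259.5 and 289.9 CPM in T497A TAC 1 and 2. Csf1r, a macrophage receptor, was highest in WT TAC 2, at 124.5 CPM against 84.3 and 73.1 CPM in WT TAC 1 and 3, and lowest in T497A TAC 3, at 60.1 CPM against 67.9 and 65.6 CPM. Pecam1, an endothelial gene, was at 204, 225 and 230.3 CPM in T497A TAC 1, 2 and 3, in the same order as the mitotic sum, and was lowest in WT TAC 2, at 237 CPM against 254 and 259 CPM. Neutrophil markers summed to 5.38 CPM or less in every library, Elane was at 0 in all groups and Ly6g was at 0 in all but WT TAC. Of the 5 neutrophil markers tested, 2 rose and 0 fell with TAC in each genotype. The neutrophil sums were 1.43 to 3.05 CPM in WT sham and 4.22 to 5.38 CPM in WT TAC. In T497A they were 1.68 to 2.75 CPM after sham and 2.87 to 4.09 CPM after TAC. Lymphocyte markers summed to 6.14 CPM or less, with 1 of 10 higher with TAC in WT and 1 higher and 1 lower in T497A. Of the 6 erythroid markers tested, 1 rose in WT and 1 fell in T497A. Of the 7 atrial markers tested, 2 rose and 1 fell in WT, and 1 rose and 4 fell in T497A. Of all tested genes, 25.9% rose and 24% fell in WT, and 12.9% rose and 11.4% fell in T497A. The 8 listed atrial markers, Nppa among them, summed to 152 to 353 CPM in WT sham and 2620 to 2940 CPM in WT TAC. In T497A sham the sums were 350, 357 and 1110 CPM, so library 3 stood apart, and in T497A TAC 474, 565 and 271 CPM.

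Of 64 further genes of the spindle, kinetochore, condensin complex and entry machinery, 53 rose and 4 fell with TAC in WT (25.9% and 24% of all tested genes). In T497A, 46 rose and 2 fell (12.9% and 11.4%). The median log2 fold changes of the 64 were 1.89 in WT and 1.78 in T497A. The smallest p-values in WT belonged to Aspm, a spindle pole protein (2.36 ± 0.19), Ckap2, a microtubule binder (2.68 ± 0.22), Smc4, a condensin subunit (0.98 ± 0.08), and Ccna2, cyclin A2 (2.78 ± 0.24). Those that fell in WT were Pttg1, which encodes securin (-1.59 ± 0.57), Sgo2a, a guardian of cohesin (-0.56 ± 0.15), and, by less, Zwint (-0.28 ± 0.05) and Ckap5 (-0.24 ± 0.06). In T497A the 2 that fell were Wee1, the kinase that restrains Cdk1 (-0.85 ± 0.11), and Zw10, a checkpoint protein of the kinetochore (-0.50 ± 0.11). After TAC, 28 of the 64 were lower in T497A than in WT (17.9% of all tested genes) and 3, Ckap5, Zwint and Sgo2a, were higher (17.8%).

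Of 16 genes for subunits of the anaphase-promoting complex and its inhibitor, 5 rose and 4 fell with TAC in WT, where 25.9% and 24% of all tested genes did, and 2 rose and 4 fell in T497A, where 12.9% and 11.4% did. The inhibitor Fbxo5, known as Emi1, rose by 2.04 ± 0.31 in WT and 1.30 ± 0.30 in T497A. The subunit Cdc27 rose in WT by 0.48 ± 0.07 and fell in T497A (-0.32 ± 0.07), and its interaction was -0.80 ± 0.10, adjusted p = 5.3e-05. The others that passed in WT with small p-values were Anapc13, which fell (-0.39 ± 0.07), and Anapc2, which rose (0.21 ± 0.06). Also falling in WT were Anapc4 (-0.17 ± 0.06), Anapc5 (-0.14 ± 0.05) and Cdc26 (-0.23 ± 0.08).

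Of 11 genes of the MuvB, B-Myb and DREAM complexes, 4 rose and 2 fell with TAC in WT (25.9% and 24% of all tested genes). In T497A, 3 rose and 1 fell (12.9% and 11.4%). Mybl2, which encodes B-Myb, rose by 1.78 ± 0.28 in WT and 2.38 ± 0.30 in T497A, beside the Foxm1 rise given above. Rbl1 and Tfdp1 rose in WT by 1.02 ± 0.20 and 0.44 ± 0.09, and the genes that fell were Rbl2, a pocket protein of resting cells (-0.52 ± 0.09), and the MuvB subunit Lin52 (-0.61 ± 0.13), which also fell in T497A (-0.49 ± 0.13). Of 13 G1 cyclin, kinase and E2F genes, 11 rose and 0 fell with TAC in each genotype (25.9% and 24% of all tested genes in WT, 12.9% and 11.4% in T497A). E2f1 rose by 2.16 ± 0.18 in WT and 1.59 ± 0.18 in T497A, and Cdk6, E2f8 and E2f7 rose by 0.76 ± 0.11, 1.34 ± 0.20 and 1.40 ± 0.23 in WT.

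Both kinds of element stood in 70.6% of the member windows, 42.4% of the windows of the other mitotic genes, 23.1% of those of the G1 list and 0 of 13 windows of the inhibitor list. These lists were assembled by known function, so the shares describe them and carry no test.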

How the data were processed

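Left ventricular RNA was sequenced from 12 libraries, 3 for each combination of genotype and surgery, in 1 batch per the labels. The deposited table holds raw counts per gene. Per the submitters' processing notes, the authors used Trim Galore 0.6.4, STAR 2.7.3a, featureCounts from Subread 1.6.3 and limma 3.50.3, and the notes name the builds mm10 and GRCh38 without a role. The strand setting, multi-mapping rule and read filters are stated in no label or header. Between 63.3% and 65.5% of counts from 1 to 199 were even in every library, although the labels' protocols describe single-end reads. The cause was not tested, and counts divided by 2 were tried as an alternative chosen after seeing the data.

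Counts were filtered with filterByExpr, scaled by TMM and fitted in R 4.3.3 with edgeR 4.0.16 (glmQLFit, robust, and glmQLFTest) as 4 group means over all 12 libraries. P-values were adjusted by the Benjamini-Hochberg method over 17699 genes, and an adjusted p under 0.05 was a call. A fold change is given as log2 ± standard error, the standard error being the estimate divided by the square root of F. Libraries that do not overlap means that every library of 1 group lies above every library of the other. A permutation test of 3 against 3 cannot go below p = 0.1, so single values were tested in the fit across genes. Alternatives were DESeq2 1.42.0 (its size factors and its test), limma 3.58.1 voom, library totals without TMM, no filter, 1 CPM in 6 libraries, the groups compared alone, a replicate block and each library left out. Pairs of replicates differed by more than sampling noise, with a chi-square per degree of freedom of 10.6 to 138 on the counts as deposited. This spread does not show that the libraries came from separate animals. Each library was counted as 1 sample by the labels.

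Gene coordinates and exon lengths are from GENCODE M21 on GRCm38, to which 55141 of 55401 gene identifiers matched. Exons of 10 members overlap another gene, and 7 members share over 5% of their 50-base windows with other genes. The members and lists were chosen with earlier results of these data known. By the rule for named genes, every library's value is given for the member of each role with the highest level, largest or smallest rise in WT, and for each member called between genotypes, by the interaction or lower with TAC. From each pathway list up to 4 called genes of smallest p in WT are named, and called genes that moved against the majority where at most 4 did. Some others are printed for completeness. Figures were drawn with matplotlib 3.10.9 in Python 3.11.15.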

Additional observations from a re-analysis of the deposited data

Results flagged for a closer look

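The change of Mad2l1 with TAC differed between the groups labelled WT and T497A by the test of the difference itself. The response in T497A minus that in WT was -0.66 on the log2 scale, with a standard error of 0.20 and an adjusted p of 0.023 by edgeR's quasi-likelihood test with Benjamini-Hochberg adjustment. T497A sham is also the 1 group with high Xist and almost no Ddx3y, so genotype and sex cannot be told apart in this difference. The 3 T497A libraries lay above the 3 WT libraries after sham and below them after TAC. The call was lost under 5 of 20 alternatives, with adjusted p from 0.0034 to 0.061 over all of them. It was lost with limma-voom (0.051) and without WT sham 2 (0.061), WT TAC 2 (0.057), T497A TAC 1 (0.054) or T497A TAC 2 (0.057).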

How the results depend on the processing

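With TAC, between 33 and 36 members were called higher in WT over 21 alternatives, and between 33 and 36 in T497A, and every fit with 1 library left out gave 35 in WT and 34 to 36 in T497A. T497A TAC against WT sham gave 26 to 35. Members called lower with TAC in T497A went from 1 to 0 in the fit of the compared groups alone. For T497A against WT after sham, the count lower was 1 with library totals, 6 with DESeq2, 0 with limma-voom and 0 to 5 with 1 library left out, and the count higher was 1 with DESeq2 and 0 to 1 with 1 library left out. After TAC the count higher was 0 with library totals and 0 without the filter, and 0 to 1 with 1 library left out, while the count lower was 33 with library totals and 6 to 26 with 1 library left out. The interaction count lower was 4 with library totals, 0 with limma-voom, 2 without the filter and 0 to 2 with 1 library left out. Cenpa in WT, at -0.00, turned to 0.33 with library totals, 0.020 with 1 CPM in 6 libraries, 0.0015 with counts divided by 2, 0.011 without WT sham 1 and 0.071 without WT TAC 2 (-0.063 to 0.071 with 1 library left out), and Spc24 in WT turned to -0.033 without WT sham 3 (-0.033 to 0.18 with 1 library left out). The cause was not tested. Library totals moved the median of all tested genes from 0.03 to 0.36 for TAC in WT and from -0.02 to -0.27 for T497A against WT after TAC.

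With the replicate number as a block, 35 members were higher with TAC in each genotype, 18 were lower and 0 higher in T497A after TAC, and 2 were lower after sham. The numbers gave no sign of pairing the libraries. The deviations of same-numbered libraries from their group means correlated at -0.113 to 0.0742 over 18 pairs. Those of other-numbered libraries correlated at -0.122 to 0.11 over 36 pairs. With 3 libraries in each group, these correlations cannot exclude a pairing. Ttk and Kif18b had the widest standard errors between genotypes, 0.60 and 0.55 after sham and 0.48 and 0.46 after TAC, so differences of that size can be missed.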

Other observations

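Of 12 genes for CDK inhibitors and other brakes of the cell cycle, 5 rose and 3 fell with TAC in WT, where 25.9% and 24% of all tested genes did, and 3 rose and 2 fell in T497A, where 12.9% and 11.4% did. Cdkn1a, which encodes p21, rose in WT (1.94 ± 0.33, adjusted p = 0.00089) and fell in T497A (-1.05 ± 0.31, adjusted p = 0.04), with an interaction of -2.99 ± 0.45, adjusted p = 0.0013. Gadd45a, a DNA damage response gene, did the reverse, with -1.09 ± 0.16, adjusted p = 5.2e-05 in WT, 0.74 ± 0.15, adjusted p = 0.0035 in T497A and an interaction of 1.83 ± 0.22, adjusted p = 6e-05. Trp53, which encodes p53, rose in both genotypes, by 0.64 ± 0.08 and 0.90 ± 0.08. The inhibitors Cdkn2c and Cdkn2d rose in WT by 0.63 ± 0.11 and 0.42 ± 0.08, and Cdkn1c and Ccng1 fell (-0.82 ± 0.20 and -0.47 ± 0.10). Ccnd1, which encodes cyclin D1, had an interaction of 1.75 ± 0.38, adjusted p = 0.0077: it rose in T497A (1.84 ± 0.27) and was not called in WT (0.09 ± 0.26, adjusted p = 0.8). Cdkn1a and Ccnd1 already differed between the sham groups, by 1.85 ± 0.33, adjusted p = 0.013 and -1.25 ± 0.27, adjusted p = 0.03, where genotype and sex cannot be told apart. These genes were picked for mention after their values were seen, apart from those the rule names.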
